A study of Mus musculus with 4 samples.

Results

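TGF-beta signalling raises the transcription of a set of extracellular matrix and feedback genes, and 9 of these genes were followed here in rib chondrocytes that had lost Eed. They are the matrix genes Thbs2, Tnc, Thbs1, Tgfbi, Fn1, Postn and Prg4 and the feedback genes Skil and Pmepa1, chosen as known targets of the pathway with collagens, smooth muscle genes and Timps left out. All 9 were represented on the array, each by 1 probe set, among 22305 named genes, and all 9 were among the 14944 genes bright enough to be tested. RNA came from primary rib chondrocytes of 0.5-day-old mice of a mixed C57B6/129Sv background, isolated with collagenase and grown overnight in DMEM with 10% fetal calf serum. The Eed cKO group held 2 arrays of cells from pups with floxed Eed and a Cre recombinase under a Col2a1 promoter. The Wt group held 2 arrays of cells from wild-type pups. Cells of the isolate in which that promoter was never active keep Eed. Each array is called by its group and number (Eed cKO 1, Eed cKO 2, Wt 1 and Wt 2), and nothing in the labels says whether an array held 1 pup or several, so p-values measure the spread between these arrays. Eed itself had array signals (linear intensities) of 1057 and 990 in Eed cKO cells, against 3597 and 3530 in Wt cells (log2 difference Eed cKO minus Wt -1.77, limma adjusted p = 7.59e-05).

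A TGF-beta ligand brings together the receptors Tgfbr2 and Tgfbr1, which phosphorylate Smad2 and Smad3. These enter the nucleus with Smad4 and act at target genes together with other transcription factors. In skeletal tissue the pathway is known for driving matrix production and for holding chondrocytes back from hypertrophy. Fibronectin, the thrombospondins, tenascin-C and periostin are secreted proteins that bind cells and organise the matrix, while Skil and Pmepa1 encode intracellular proteins that dampen Smad signalling.

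Thbs2 and Tnc rose clearly in Eed cKO chondrocytes, Thbs1 and Tgfbi rose slightly, and Fn1 fell slightly. The remaining 4 genes, Postn, Prg4, Skil and Pmepa1, did not pass the test, which was limma's moderated test of Eed cKO minus Wt on log2(intensity + 32) with an adjusted p of 0.05 over all genes tested as the threshold. Thus 4 of 9 genes rose, where 9.63% of all genes tested did, and 1 of 9 fell, where 5.98% did. In 7 of the 9 both Eed cKO arrays lay above both Wt arrays (31.1% of all genes tested) and in 2 both lay below (29.1%). The median log2 difference was 0.17 over the 9 genes and 0.00 over all genes tested. In RNA from a whole culture, a change in the number of cells of a type and a change in RNA per cell cannot be told apart.

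**Figure D1:**
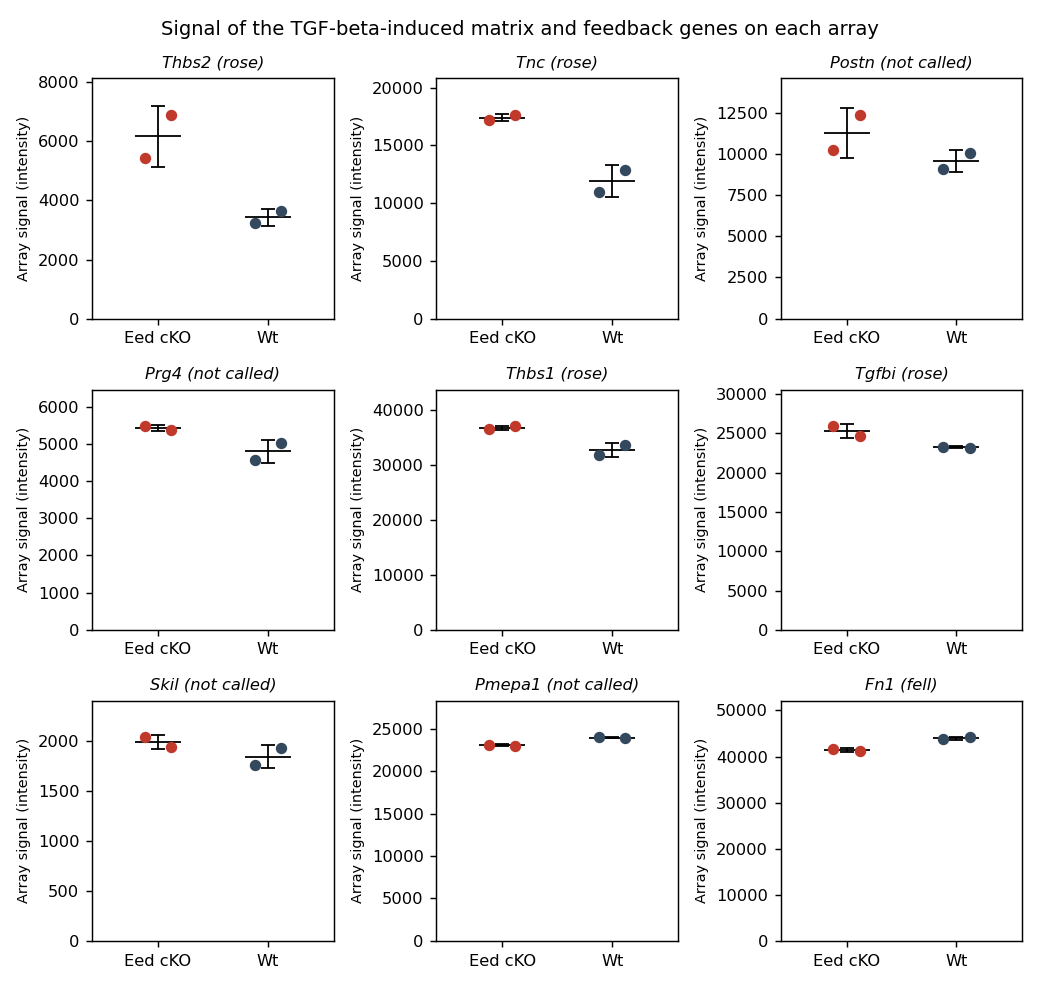
Array signal (linear intensity, axis starting at 0) of each of the 9 genes, with a point for each of the 2 Eed cKO and 2 Wt arrays, array 1 left and array 2 right, and bars for the group mean and SD (n = 2 arrays). Thbs2 and Tnc are separated between the groups by more than their spread, and the other genes sit close together on this scale.

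The secreted thrombospondins, which bind matrix, growth factors and cell surface receptors, showed the largest and one of the smaller increases. Thbs2, a thrombospondin that affects collagen fibril assembly, had signals of 5443 and 6891 on Eed cKO 1 and Eed cKO 2, against 3234 and 3635 on Wt 1 and Wt 2. The lower Eed cKO array was thus 1.5-fold above the higher Wt array, and the means were 6167 ± 1024 in Eed cKO cells and 3435 ± 283 in Wt cells (SD, n = 2 arrays each). It rose by 0.83 on the log2 scale (SE 0.11, 95% confidence interval 0.56 to 1.10, limma adjusted p = 0.00439), a difference that exceeded that of 98.4% of the genes tested. With any single array left out, the difference was between 0.66 and 1.00 and the limma adjusted p between 0.000328 and 0.0033. Thbs1, a thrombospondin that can activate latent TGF-beta, had signals of 36540 and 37133 in Eed cKO cells and 31961 and 33708 in Wt cells. Its groups did not overlap but lay close together, and it rose by 0.17 (SE 0.03, interval 0.09 to 0.24, limma adjusted p = 0.0138). The intervals of the thrombospondins Thbs2 and Thbs1 did not overlap. Thbs1 ranked 42 in brightness among the genes tested and Thbs2 ranked 4256. Differences narrow towards the bright end, so the sizes of these rises are not directly comparable. The Thbs1 call held with each array left out and was lost without the intensity trend of the variance (adjusted p = 0.125).

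Tnc encodes tenascin-C, a large matrix glycoprotein of developing and injured connective tissue that is also found in perichondrium. Its signals were 17179 and 17617 in Eed cKO cells, against 10920 and 12880 in Wt cells. The Eed cKO arrays were nearly equal, Wt 2 lay above Wt 1, and the groups were well apart. The gene rose by 0.55 (SE 0.07, interval 0.38 to 0.72, limma adjusted p = 0.00379), and its difference stayed between 0.43 and 0.67 with any array left out. Of the 9 genes, only Thbs2 and Tnc had a ratio of Eed cKO to Wt means more than 25% over 1 (1.80 and 1.46), a size that 7.99% of all genes tested had.

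The fasciclin-domain proteins periostin and Tgfbi are secreted proteins of the same family that bind integrins. Postn, which is made by periosteum, perichondrium and other fibrous tissue, had 10221 and 12362 in Eed cKO cells, against 9086 and 10046 in Wt cells. The lower Eed cKO array was only 1.02-fold above the higher Wt array. Its log2 difference of 0.23 (SE 0.09, interval 0.02 to 0.45, limma adjusted p = 0.137) was larger than that of Thbs1, but so was its SE, and it did not pass. The Postn difference rested on single arrays: it was 0.37 without Eed cKO 1 and passed (adjusted p = 0.0107), but 0.10 without Eed cKO 2 (0.357), 0.16 without Wt 1 (0.366) and 0.31 without Wt 2 (0.0588). Tgfbi, named for its induction by TGF-beta, had 25920 and 24678 in Eed cKO cells, against 23323 and 23206 in Wt cells. It rose by 0.12 (SE 0.03, interval 0.04 to 0.20, limma adjusted p = 0.0482). This call lay at the threshold and was lost without Eed cKO 1 (adjusted p = 0.115), Wt 1 (0.131) or Wt 2 (0.159), without the filter on dim genes (0.056), without the trend (0.222) or with every probe set tested separately (0.0627).

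**Figure D2:**
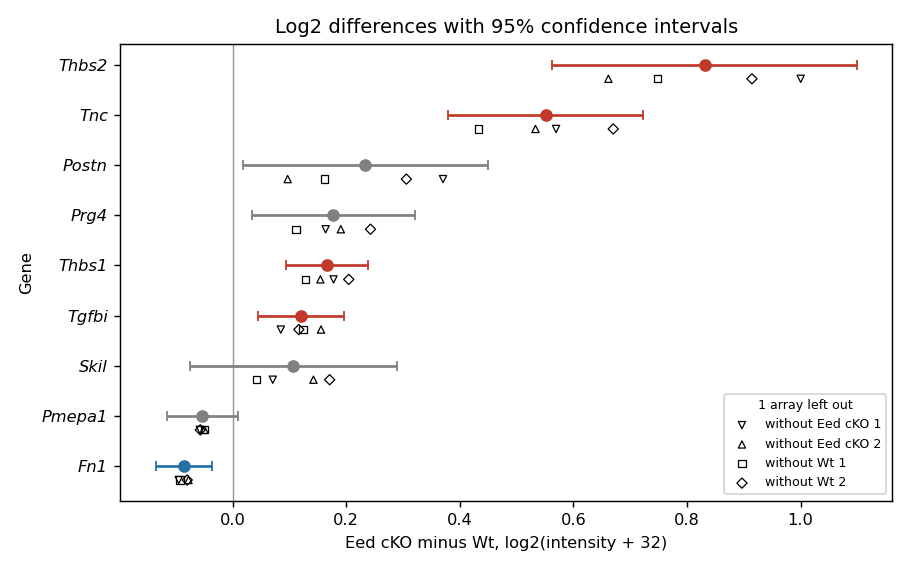
Log2 difference Eed cKO minus Wt (x axis) of the 9 genes (y axis), with filled circles for the fit to all 4 arrays, bars for 95% confidence intervals and open symbols for the fits without 1 array. Red genes rose, the blue gene fell and grey genes were not called; Thbs2 (0.83) and Tnc (0.55) stand to the right of the others in every fit.

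Fn1, encoding fibronectin, which links integrins to the matrix, was the only one of the 9 to fall. It had signals of 41660 and 41165 in Eed cKO cells, against 43769 and 44156 in Wt cells, with no overlap. The fall was 0.09 on the log2 scale, a ratio of means of 0.942 (SE 0.02, interval -0.14 to -0.04, limma adjusted p = 0.0352). The call did not hold after quantile normalization, where the difference was -0.04 (adjusted p = 0.197), in a fit with no trend (0.33), or without Eed cKO 2 (0.0823), Wt 1 (0.121) or Wt 2 (0.189). The highest signal of any gene was between 50696 and 52469 on the 4 arrays, so Fn1 lay near the upper end of the signal range.

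Prg4 encodes lubricin, the lubricating proteoglycan of the joint surface. It had 5479 and 5378 in Eed cKO cells, against 4582 and 5021 in Wt cells, with a difference of 0.18 (SE 0.06, interval 0.03 to 0.32, limma adjusted p = 0.0991). Wt 2 lay nearer to Eed cKO 2 than to Wt 1, and the groups did not overlap. The Prg4 difference was 0.11 without Wt 1 and 0.24 without Wt 2. Of the feedback genes, Skil, encoding the Smad co-repressor SnoN, had 2034 and 1934 in Eed cKO cells, against 1758 and 1925 in Wt cells. Eed cKO 2 and Wt 2 were nearly equal there, and the difference was 0.11 (SE 0.08, interval -0.08 to 0.29, limma adjusted p = 0.403). It was 0.07 without Eed cKO 1, 0.04 without Wt 1, 0.17 without Wt 2 and 0.06 with quantile normalization. Pmepa1, a membrane protein that sequesters receptor-regulated Smads, was close to equal, with 23138 and 23006 in Eed cKO cells, against 23999 and 23887 in Wt cells. Its difference was -0.05 (SE 0.03, interval -0.12 to 0.01, limma adjusted p = 0.226), which leaves room for a fall of 0.12 or a rise of 0.01 in signal. No alternative setting brought Skil, Pmepa1 or Prg4 past the threshold.

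**Figure D3:**
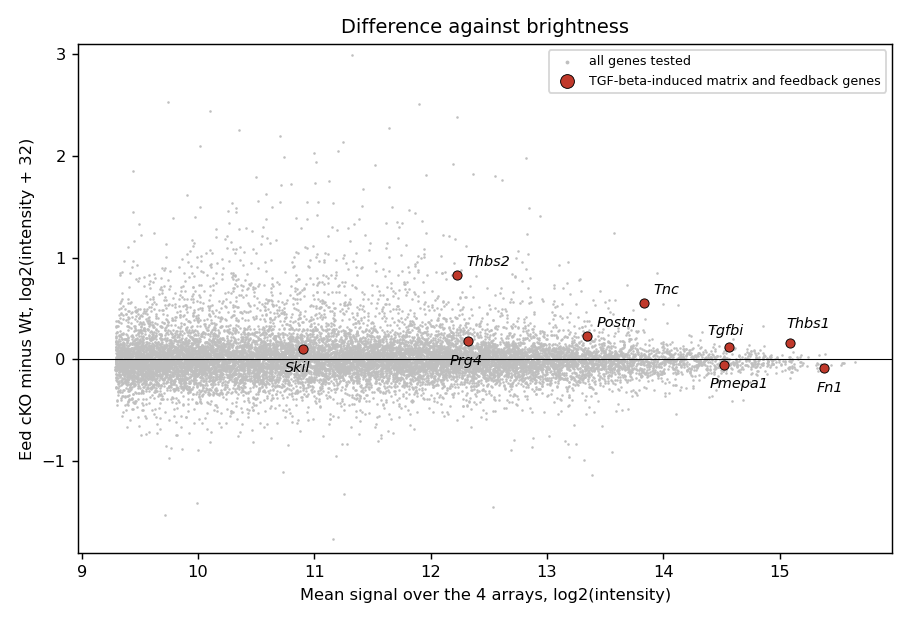
Log2 difference Eed cKO minus Wt (y axis) against the mean signal over the 4 arrays (x axis, log2 intensity) for the 14944 genes tested (grey) and the 9 TGF-beta-induced matrix and feedback genes (red). Differences narrow towards the bright end, where Fn1, Thbs1, Tgfbi and Pmepa1 lie, while Thbs2 and Tnc stand above most genes of their brightness.

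To show the sequence upstream of the genes that rose, the 250 bases before the transcription start of Thbs2, Tnc and Tgfbi are given from RefSeq (GRCm38.p6), 5′ to 3′ on the gene's strand, with capitals for matches to the Smad-binding motif CAGAC on either strand (GTCTG where the match is on the opposite one). The Thbs2 window is chr17:14694263-14694512 on the minus strand, that of Tnc chr4:64047016-64047265 on the minus strand, and that of Tgfbi chr13:56609336-56609585 on the plus strand.
Thbs2: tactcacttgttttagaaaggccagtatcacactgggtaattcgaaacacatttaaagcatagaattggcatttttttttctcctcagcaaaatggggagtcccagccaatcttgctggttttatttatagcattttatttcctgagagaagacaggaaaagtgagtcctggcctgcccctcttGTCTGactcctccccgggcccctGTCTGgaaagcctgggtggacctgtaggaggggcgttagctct
Tnc: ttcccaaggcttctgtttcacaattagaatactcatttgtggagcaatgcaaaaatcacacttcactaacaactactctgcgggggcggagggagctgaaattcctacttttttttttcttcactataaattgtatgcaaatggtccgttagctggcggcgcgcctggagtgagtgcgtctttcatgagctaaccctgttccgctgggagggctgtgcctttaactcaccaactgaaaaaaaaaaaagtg
Tgfbi: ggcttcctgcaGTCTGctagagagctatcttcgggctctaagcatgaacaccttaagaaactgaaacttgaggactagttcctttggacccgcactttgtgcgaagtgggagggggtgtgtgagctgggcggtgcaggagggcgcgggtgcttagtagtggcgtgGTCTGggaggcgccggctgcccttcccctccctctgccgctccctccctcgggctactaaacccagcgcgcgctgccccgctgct
The Thbs2 window held 2 matches, beginning 66 and 43 bases before the start, and the Tgfbi window held 2, beginning 239 and 85 bases before it. The printed Tnc window held none, and the window of a second RefSeq start of Tnc held 1. Windows were given for 4 of the 9 genes, Postn being the other, and 4 of their 6 windows had a match, beside 42.2% of all 32851 windows of this length. None of the 6 held the AP-1 site TGACTCA in either orientation, which 4.46% of all windows did. These matches are letters in a window and no evidence of binding. Fn1, Thbs1, Skil, Pmepa1 and Prg4 had no window in the table.

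The order of the arrays was shared by several of these genes. Postn, Thbs1, Thbs2 and Tnc each had their highest signal on Eed cKO 2, followed by Eed cKO 1, Wt 2 and Wt 1. This order was held by 8.6% of all genes tested. It requires both Eed cKO arrays to lie above both Wt arrays. Of the 4651 tested genes with that separation 1285 had the order, and of the 7 such genes among the 9 it was 4. Among tested cell type markers, 4 of 10 of joint surface and tendon, 3 of 7 of skeletal muscle and 2 of 6 of smooth muscle had this order. For endothelium it was 2 of 6, for chondrocytes 0 of 10 and for macrophages and platelets 0 of 8. The separation that the order requires was shown by 7 joint surface and tendon genes, 3 of skeletal muscle and 3 of smooth muscle. It was shown by 4 genes of endothelium, 1 of chondrocytes and 4 of macrophages and platelets. Des stands on both muscle lists. Of 12 genes typical of fibroblasts and perichondrium, 8 showed the separation and 7 had this order, among them Col1a1 of bone and fibrous collagen. The summed signal of these 12 genes was 105915 and 115000 on the Eed cKO arrays, against 92364 and 99051 on the Wt arrays. Of them 8 rose and 1 fell, where 9.63% and 5.98% of all genes tested did. Col3a1 (0.01, limma adjusted p = 0.885), Lum (-0.06, 0.481) and Fap (0.12, 0.606), named beyond the rule, were not called. The gene that fell was Dcn, encoding the small proteoglycan decorin and named beyond the rule (-0.25, limma adjusted p = 0.00914, and 0.0659 without the trend). Of the 8 that rose, Prrx1, Twist1 and Pdgfra had the smallest p, with rises of 0.73, 1.21 and 0.80 (limma adjusted p = 0.000152 to 0.00109). Col1a1 had 10197 and 12199 in Eed cKO cells, against 8621 and 9302 in Wt cells, a rise of 0.32 at the threshold (limma adjusted p = 0.0481). The Col1a1 difference was 0.19 without Eed cKO 2 (0.0745) and 0.26 without Wt 1 (0.0972), and its call was also lost with no trend, no filter, the filter at the 50th percentile, quantile normalization or separate probe sets (0.0515 to 0.108). Of 12 genes of joint surface and tendon, 10 were tested, and 4 rose and 0 fell by limma, beside the same shares of all genes. At an unadjusted p under 0.05, by limma or the methods' t-test, 0 were lower as well. Gdf5, a growth factor of the joint interzone, rose by 0.41 (limma adjusted p = 0.0148), and did not pass without Wt 1 (0.0653) or Wt 2 (0.0914), and without Wt 1 only 2 of these 10 genes rose. The summed signal of the 12 was 58113 and 61446 in Eed cKO cells, against 55504 and 56602 in Wt cells. The part of these cell types in the values of Thbs2, Tnc, Postn and Prg4 was not tested.

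The genes whose profile over the 4 arrays lay nearest to that of a called gene, by the Euclidean distance of centred log2 signals, were Frmd6, Ppbp and Tmem108 for Tnc (distances 0.02 to 0.04). For Thbs2 they were LOC100039795, the homeobox gene Dlx5 and Mamdc2 (0.06 to 0.10). Dlx5 had 4001 and 4845 in Eed cKO cells, against 2431 and 2810 in Wt cells. For Thbs1 they were Pik3r4, Ogdh and Tmem176b, for Tgfbi Ercc1, Anapc13 and N4bp1, and for Fn1 Ficd, Eya3 and Man1a, all within 0.02. With 4 arrays many genes share such a profile, and likeness here is a description.

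Other response genes of the pathway also held rises and falls. Of 30 tested, 7 rose, 4 fell and 19 were not called, and their median log2 difference was 0.14. Of all genes tested, 9.63% rose and 5.98% fell. In 21 of the 30 both Eed cKO arrays lay above both Wt arrays (31.1% of all genes tested) and in 4 both lay below (29.1%). Without Eed cKO 2 the number that rose was 11 and without Wt 2 the number that fell was 2. Vcan, the large matrix proteoglycan versican, rose by 1.04, with 5044 and 5544 in Eed cKO cells, against 2308 and 2846 in Wt cells (limma adjusted p = 0.00137). Igfbp3, which binds insulin-like growth factors, rose by 0.97, with 2737 and 2572 in Eed cKO cells, against 1349 and 1324 in Wt cells. The latent TGF-beta binding protein Ltbp2, the cell cycle inhibitor Cdkn2b and the ligand Tgfb1 rose by 0.95, 0.62 and 0.34. The genes that fell were Snai2, a mesenchymal transcription factor, by 0.17, and, named beyond the rule because there were so few, Fbln5 of elastic fibres by 0.53, Sparc by 0.11 and Bgn, the small proteoglycan biglycan, by 0.09. All 4 of these falls lost their call without the trend, that of Sparc also without Wt 2 (adjusted p = 0.0714) and that of Bgn without any one of the arrays (0.0566 to 0.228). With quantile normalization Sparc had a difference of -0.06 (0.0749) and Bgn one of -0.07 (0.146), and neither passed.

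Upstream of these genes, 10 of 18 TGF-beta ligands, receptors, latent binding proteins and Smads tested rose by limma and 0 fell, with a median of 0.26. At an unadjusted p under 0.05, limma found 0 lower and the methods' t-test 1. Of all 14944 genes tested, limma put 2493 higher and 2061 lower at that unadjusted threshold, and the methods' t-test 1748 and 1201. Tgfbr3, the co-receptor betaglycan, rose by 0.71, with 7654 and 6583 in Eed cKO cells, against 4496 and 4192 in Wt cells (limma adjusted p = 0.00223). Smad3 rose by 0.60, Tgfbr2 by 0.50, Ltbp1 by 0.64 and the co-receptor Eng by 0.81. Ltbp2, Tgfb1 and Smad7, the last named beyond the rule and not called, stand on this list and on the preceding one. Ski and Ldlrad4 stand on the preceding one and among the relatives of the 9 genes. Beside the upstream genes, 0 of 10 tested relatives of the 9 genes were called by limma. Of the 10, 2 were higher and 1 lower by limma at an unadjusted p under 0.05, to be read beside the counts over all genes. The methods' t-test on the same values gave 1 higher and 0 lower. The nearest was Thbs4, a thrombospondin of tendon and muscle, with 5448 and 6274 in Eed cKO cells, against 3903 and 4978 in Wt cells (0.40, limma adjusted p = 0.0646). It passed without Eed cKO 1 (0.0381) or Wt 2 (0.00231). With limma adjusted p-values in parentheses, Thbs3 had a difference of -0.15 (0.105), the cartilage thrombospondin Comp one of 0.03 (0.675), and Ski, the relative of Skil, one of 0.13 (0.096). Ldlrad4, the relative of Pmepa1, had a difference of 0.16 (0.168), and Vtn, whose product vitronectin shares domain types with lubricin, one of -0.24 (0.243), and without Eed cKO 2 both passed (0.0494 and 0.0173). The tenascins Tnn and Tnxb had differences of 0.15 and -0.14, and the fasciclin-domain receptors Stab1 and Stab2 of -0.01 and -0.01, while Tnr was too dim to be tested.

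Of 17 tested cell surface receptors, 7 rose and 1 fell, the other 9 missed the threshold, and the median was 0.16. The shares over all genes tested were 9.63% and 5.98%, with a median of 0.00. The list was drawn up for the matrix proteins among the 9 genes. It also holds collagen receptors, among them Itga1 of the 7 that rose. Itga9, an integrin chain that binds tenascin-C, rose by 0.83, with 2832 and 3166 in Eed cKO cells, against 1752 and 1593 in Wt cells (limma adjusted p = 0.00147). Itga3 rose by 0.59, the collagen receptor chain Itga1 by 0.42, the proteoglycan syndecan-1 (Sdc1) by 0.32 and Cd44, which binds hyaluronan and lubricin, by 0.23, the last not passing without Wt 1 (0.0547) or Wt 2 (0.0502). Itgb8, a chain of an integrin that activates latent TGF-beta, fell by 0.46 (limma adjusted p = 0.0201, and 0.107 without Wt 1). The chains of the main fibronectin receptor, named beyond the rule, did not pass, with differences of -0.06 for Itga5 (limma adjusted p = 0.33) and 0.00 for Itgb1 (0.94).

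**Figure D4:**
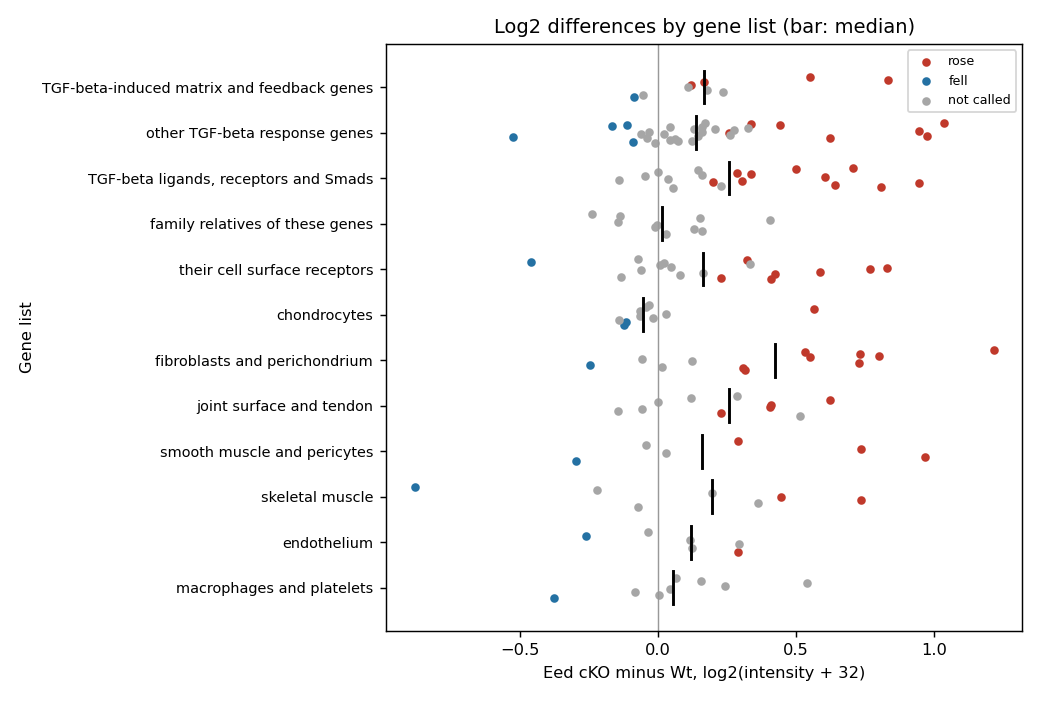
Log2 difference Eed cKO minus Wt (x axis) of every tested gene of each list (y axis), with red for genes that rose, blue for genes that fell, grey for genes not called and a black bar for the median. The 9 TGF-beta-induced matrix and feedback genes (median 0.17) spread from -0.09 to 0.83, and the fibroblast and perichondrium list has a median of 0.42.

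Across the series, the cartilage markers were bright in both groups, with Col2a1 at 36621 and 37497 in Eed cKO cells, against 37529 and 37633 in Wt cells, and of 10 such markers 1 rose and 2 fell. Their summed signal was 245203 and 241996 in Eed cKO cells, against 247018 and 251271 in Wt cells. Array medians lay between 830 and 837. The SD of the log2 difference over genes was 0.158 between the Eed cKO arrays, 0.129 between the Wt arrays and 0.272 and 0.28 between arrays of different groups with the same number. Summed signals of the remaining cell type lists were 43837 and 45980 in Eed cKO cells against 46257 and 48517 in Wt cells for smooth muscle and pericytes, and 20147 and 20849 against 20564 and 21442 for skeletal muscle. They were 7775 and 8186 in Eed cKO cells against 7602 and 7589 in Wt cells for endothelium. For macrophages and platelets they were 11606 and 10305 against 10489 and 10532. The largest part of the smooth muscle sum came from Acta2, with 19758 and 20498 in Eed cKO cells, against 23898 and 25685 in Wt cells. Acta2 was the only 1 of 6 tested there that fell, and 3 rose. Of skeletal muscle genes, 2 of 7 tested rose and 1 fell. For endothelium 1 of 6 rose and 1 fell, and for macrophages and platelets 0 of 8 rose and 1 fell. Of all genes tested, 9.63% rose and 5.98% fell. The RNA of the inactive X chromosome, Xist, named beyond the rule, differed within both groups, with 4845 and 17196 in Eed cKO cells, against 17820 and 3634 in Wt cells. The Y chromosome gene Ddx3y, also beyond the rule, went the other way, with 4324 and 622 in Eed cKO cells, against 192 and 4664 in Wt cells. Arrays of the same group and same-numbered arrays thus differed in these sex-linked RNAs, and sex was not a term of the fit.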

How the data were processed

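Expression was measured on 4 Affymetrix Mouse Gene ST arrays, 2 Eed cKO and 2 Wt. The deposited values are intensities on a linear scale, 1 for each of 35512 probe sets and array. Array medians of 830 to 837 show that the authors had brought them to a common level. A sheet name of the study mentions dChip, and for background correction and build the sources used here give nothing. The deposited tables hold equal values (largest difference 0), and the authors' ratio columns of Eed cKO to Wt in one of them were not used.

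Probe sets were named from the deposited table, updated through RefSeq genes of GRCm38.p6: 18664 through accessions, 2420 through symbols and 1957 through older names. Another 2134 kept the deposited name and 10337 had none. The brightest probe set stood for each gene, and genes below the 33rd percentile of mean intensity (626) were left out. Log2(intensity + 32) was fitted with limma 3.58.1 (R 4.3.3; lmFit and eBayes with an intensity trend) with group as the only term, tested two-sided and adjusted by Benjamini-Hochberg over the 14944 genes kept. The residual degrees of freedom were 2, raised to 6.911 by the shared variance estimate. The pseudocount understates the log2 differences of dim genes.

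The genes, lists and tests were chosen with earlier results of these data known. Named genes are the 9 genes, the 3 nearest profiles of each called one, their family relatives, and in each list up to 6 called genes with the smallest p, with Eed and the first gene of a marker list; others are said to be named beyond the rule. In all, 14 alternatives were tried, 1 of them (all probe sets tested separately) chosen after seeing the data. Precision is limited by the number of arrays, which have no read depth.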

Additional observations from a re-analysis of the deposited data

How the results depend on the processing

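Calls among the 9 genes were held by Thbs2 and Tnc under every alternative but the methods' t-test (unpaired, 2 arrays per group). With Benjamini-Hochberg that test called 0 of the 9, and 2 genes higher and 2 lower of all genes. At an unadjusted p under 0.05 it gave 2 of the 9 higher and 2 lower. Of all 14944 genes tested it gave 1748 higher and 1201 lower at that threshold. Without the intensity trend limma called 2 of the 9 higher and 0 lower, and of all genes 1192 higher and 574 lower. Unadjusted, that fit gave 4 and 0 of the 9, and 2429 and 1900 of all genes. With quantile normalization 0 of the 9 fell (unadjusted, 0), where 952 of all genes did (unadjusted, 2282). With 1 array left out, 3 to 4 of the 9 rose and 0 to 1 fell, and over all genes 928 to 1562 rose and 385 to 1170 fell. Such fits leave 1 array in a group, which is assumed to vary like the other group. Without Wt 1, 928 genes rose and 509 fell, and without Wt 2, 385 fell. With the replicate number as a block, 5 of the 9 rose, Postn being added (adjusted p = 0.0164), and 1 fell, and of the relatives Thbs4 passed (0.00438). The correlation of deviations across genes was -0.06 for same-numbered arrays and 0.06 for crossed ones. With 2 arrays per group these are a single contrast, which cannot decide whether the numbers mark pairs. The paper states that its control and cKO mice were littermates, but which arrays shared a litter is not known here. The main fit therefore did not use pairs. No call among the 9 genes or the listed genes turned its direction under any of the 14 alternatives. Background correction could not be varied from these values.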
